A study of Saccharomyces cerevisiae with 16 samples.

Results

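The genes described here encode the machinery of RNA polymerases I and III in the wine yeast Saccharomyces cerevisiae EC1118. They are the 40 genes, of 6248 features on the array, whose symbol in the platform annotation names a subunit of these enzymes, a factor that starts their transcription, or the repressor MAF1. RNA polymerase I (Pol I) transcribes the large precursor of ribosomal RNA, and RNA polymerase III (Pol III) transcribes transfer RNAs, the smallest ribosomal RNA and other small RNAs. In growing yeast these products make up most of the RNA of the cell, and yeast is known to lower both activities when nitrogen or other nutrients run short. Pol I needs the factor Rrn3 to start, and the protein Maf1 binds and represses Pol III when cells are starved.

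By role, 7 of the genes encode subunits found only in Pol I, 10 encode subunits found only in Pol III, 2 encode subunits shared by these enzymes, and 5 encode subunits common to all 3 nuclear polymerases. A further 7 encode initiation factors of Pol I, 8 encode initiation factors of Pol III, and 1 is MAF1. Each was measured by 1 probe except RRN5, which had 2 whose values were averaged. Of the 40, 5 lay among the dimmest 25% and 5 among the brightest 25% of all features by mean intensity, and no filter on intensity was applied.

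The study fermented EC1118 on a synthetic must whose sugar was 200 g/L glucose and whose assimilable nitrogen was 100 mg/L, in a chain of 4 continuously fed tanks and in ordinary batch fermentors. The ammonium group (3 samples) and the valine group (3 samples) came from the third tank, where nitrogen was exhausted, after that tank had been given 100 mg/L of extra nitrogen as a steady flow of ammonium or valine. The no-addition group (4 samples) came from the third tank before any supplement, at 164 g/L residual glucose, and the batch group (4 samples) came from stationary phase at the same residual glucose in batch cultures kept at 28 °C. The batch cultures were given no extra nitrogen either. No-addition and batch samples therefore differ in the kind of culture and not in added nitrogen. All samples were of this industrial strain and none carried a genetic change named in the labels.

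Samplings of a tank condition were 24 h apart, and the labels do not say whether they came from separate continuous fermentations. The p-values therefore measure the spread between these samples, which may be partly technical. Supplements were given after the no-addition steady state had been sampled, so nitrogen supply and time in the run cannot be told apart. The labels give neither a temperature for the continuous tanks nor the residual glucose after supplementation. One-colour arrays report an amount of messenger RNA relative to all RNA labelled, so fewer cells of a kind and less RNA per cell cannot be told apart. Values are the authors' normalized log2 intensities, on which a difference of 1 is a doubling. Levels of different probes are not comparable. Apart from the ranking by mean intensity above, the printed levels are therefore read only as differences between samples, of a gene or of a ratio of genes.

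The array medians lay between 9.09 and 9.1, and 14 samples entered the tests. Over the 40 genes, the SD of the difference between 2 samples of a group was 0.0564 to 0.261 on the log2 scale, and 0.134 between the 2 arrays of ammonium sample 3, which lay on different slides. Batch sample 1 stood farthest from its group, at 0.185 to 0.261 from the other batch samples. A sample with contradictory labels was left out of every group. Slide 1 held 1 ammonium, 2 valine, 1 no-addition and 3 batch arrays, and slide 2 held 3, 1, 3 and 1 in that order. A comparison within a slide therefore mostly sets a group of 1 sample against another, with the spread taken from the groups that have more. In what follows a gene is called higher or lower where limma's adjusted p, corrected by the Benjamini-Hochberg method over all 6248 features, was under 0.05. The 6 comparisons share samples, so their values are set side by side and are not independent.

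In the no-addition tank samples, most of this machinery stood below its level in batch, which also received no added nitrogen, at the same residual glucose. Of the 40 genes, 25 were lower in the no-addition samples than in batch, where 27% of all features were lower, and 4 were higher, where 30.3% of all features were higher. The median difference was -0.41 over the 40 genes and 0.02 over all features. In 24 genes every no-addition sample lay below every batch sample (24.6% of all features), and in 3 every one lay above (27.8%). All 7 Pol I subunits, both subunits shared with Pol III, 4 of 5 common subunits and 8 of 10 Pol III subunits were lower, whereas the initiation factors of Pol III were not: 1 of 8 was lower and 3 were higher. The call on BRF1 was lost without no-addition sample 1, 3 or 4 or without batch sample 2 or 3 (adjusted p 0.0508 to 0.0727). With slide as a covariate no call on the 40 genes in this comparison changed. Within a slide, where this comparison has 1 sample in a group, limma made no call on BRF1, RPO31, RPC25, TFC6 and TFC7 on either slide, nor on RET1 and RRN10 on slide 1.

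With ammonium, the third tank gave higher levels of 27 of the 40 genes than without addition, where 32.1% of all features were higher, and lower levels of 6, where 35.5% of all features were lower. The median difference was 0.39 over the 40 genes and -0.02 over all features. In 26 genes every ammonium sample lay above every no-addition sample (34.1% of all features), and in 7 every one lay below (37.4%). All 14 subunits that belong to Pol I or are shared rose, Pol III subunits rose in 7 cases and fell in 2, and MAF1 fell. Of these calls, 4 were lost when 1 sample was left out. They were RPO31 (ammonium 1 or 3, no addition 2, 3 or 4, or valine 1, adjusted p 0.0501 to 0.289), RET1 (ammonium 1 or 3, no addition 1 or 3, 0.0539 to 0.116), TFC3 (ammonium 1 or 3, no addition 3 or 4, 0.0817 to 0.121) and TFC4 (ammonium 1 or 3, no addition 1, 3 or 4, batch 2, 0.0503 to 0.132).

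With valine, 24 of the 40 genes were higher than without addition, where 32.3% of all features were higher, and 5 were lower, where 35.6% of all features were lower. The median difference was 0.26 over the 40 genes and -0.01 over all features. In 23 genes every valine sample lay above every no-addition sample (32.8% of all features), and in 5 every one lay below (36.8%). Again all 14 Pol I and shared subunits rose, Pol III subunits rose in 7 cases and fell in 1, and MAF1 was not called. Leaving out 1 sample ended 6 of the calls: RPC11 (valine 1 or 3 or any no-addition sample, adjusted p 0.0557 to 0.187), RRN7 (any valine sample, no addition 1, 2 or 4, 0.0559 to 0.0922), RET1 (valine 2 or 3, no addition 1 or 3, 0.0646 to 0.139), BRF1 (valine 1, no addition 2, 0.0686 to 0.127), RPA34 (valine 1 or 2, 0.0588 to 0.0664) and RPC53 (valine 1, 0.108). With slide as a covariate BRF1, RPC11 and RRN7 were no longer called (0.0617, 0.0543 and 0.0777) and MAF1 was called lower (0.0445).

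Between the supplements 12 of the 40 genes were called. Ammonium gave a higher level than valine for 8 of 40 genes, where 7.59% of all features were higher, and a lower level for 4, where 8.79% of all features were lower, with a median difference of 0.06. Ammonium samples lay above all valine samples in 10 genes (18.5% of all features) and below them in 7 (15.8%). The 8 were RRN7, RRN11, RPC53, RPA34, RPB5, RPA43, RPB8 and RPA12, and the 4 were BRF1, RPC37, RPC34 and RPC10. The calls on RPC53, RPB5 and BRF1 held without any 1 sample. Those on the other 9 did not. RRN11 (any ammonium or valine sample, batch 2 or 4, no addition 1 or 4, adjusted p 0.0505 to 0.145), RPB8 (ammonium 2 or 3, valine 1 or 2, batch 2, any no-addition sample, 0.0501 to 0.185) and RPA12 (any ammonium sample, valine 1 or 2, batch 4, no addition 2 or 4, 0.0512 to 0.188) were lost most often. RRN7 (ammonium 1 or 2, valine 1 or 2, 0.0667 to 0.104), RPC37 (ammonium 2 or 3, valine 1 or 2, 0.0705 to 0.105), RPA43 and RPC34 (for each, ammonium 1 or 3, valine 1 or 2, 0.089 to 0.118 and 0.0554 to 0.065), RPC10 (ammonium 1 or 2, valine 2 or 3, 0.0512 to 0.0683) and RPA34 (ammonium 2 or 3, valine 3, 0.0504 to 0.0731) were lost without those samples. With slide as a covariate RRN7, RRN11, RPA43, RPB8 and RPC34 were no longer called (0.0817, 0.099, 0.0642, 0.105 and 0.0609). Conversely RPA190 was called without ammonium sample 2 (0.0474) and MAF1 without valine sample 3 (0.0367).

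Against batch, the supplemented tanks showed no common direction over the 40 genes. With ammonium 14 were higher than in batch, where 33.2% of all features were higher, and 11 were lower, where 35.5% of all features were lower, with a median of 0.05. Ammonium samples lay above all batch samples in 13 genes (31.9% of all features) and below them in 11 (33.7%). With valine 13 were higher, where 31.6% of all features were higher, and 14 were lower, where 34.8% of all features were lower, with a median of -0.01. Valine samples lay above all batch samples in 12 genes (29.4% of all features) and below them in 12 (33.1%). With ammonium the call on RPA12 was lost without ammonium sample 3 (adjusted p = 0.0508), whereas RPA14 (without batch 1, valine 1 or valine 3), RPC31 (ammonium 2 or batch 3), RPC53 and RPO26 (ammonium 2), RPO31 (ammonium 1) and RET1 (batch 4) became called without the sample named (0.0147 to 0.0493). With valine leaving out 1 sample ended the calls on TFC6 (any valine sample, ammonium 2, batch 3 or 4, no addition 1, 2 or 4, 0.0538 to 0.141), MAF1 (valine 2 or 3, batch 3 or 4, no addition 2 or 4, 0.05 to 0.223), RRN6 (valine 1 or 2, ammonium 3, batch 1 or 2, no addition 3, 0.0507 to 0.158), RPC17 (valine 1 or 2, 0.0541 to 0.0565) and TFC4 (valine 1, 0.102), while RPA43, RPA49, RPC11 and TFC3 were called without batch sample 1 (0.000436 to 0.014) and RPO26 without valine sample 3 (0.0437). With slide as a covariate RPO26 was called higher with ammonium (0.0389), and TFC6 was not called with valine (0.0607).

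**Figure D1:**
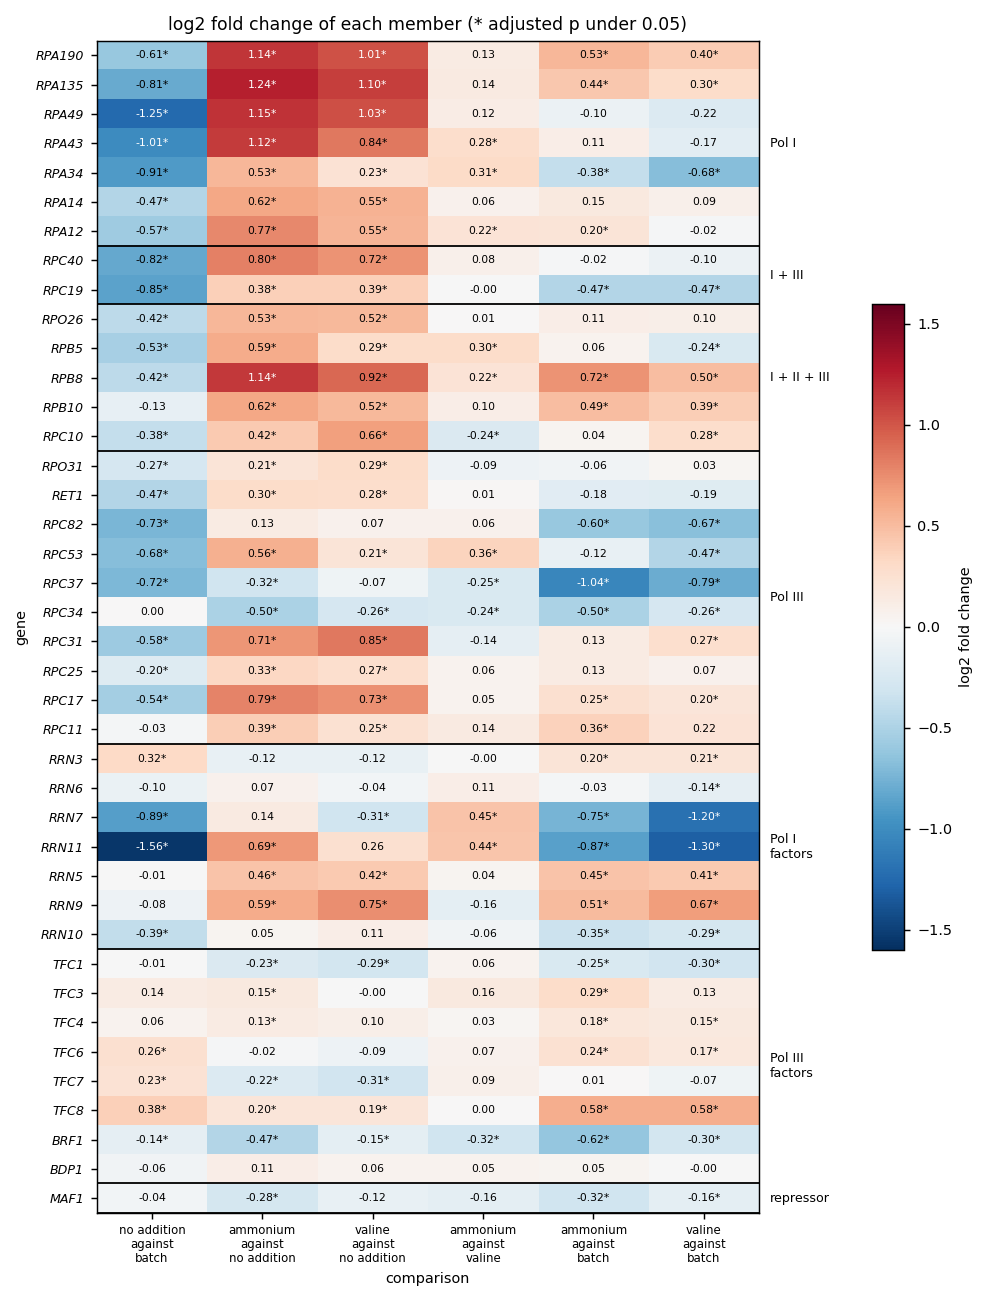
Log2 fold change of each of the 40 genes in the 6 comparisons, as printed in the cells and by colour (red higher, blue lower), with an asterisk where the adjusted p was under 0.05. All 7 Pol I subunits are blue for no addition against batch and red for each supplement against no addition, while the initiation factors are mixed.

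RPA190 and RPA135 encode the largest and the second largest subunit of Pol I, which together form its catalytic centre. RPA190 measured 10.35, 10.12 and 10.36 with ammonium, 10.19, 10.10 and 10.15 with valine, 9.02, 9.21, 9.11 and 9.20 without addition, and 9.73, 9.72, 9.80 and 9.72 in batch. The no-addition samples were below all others and the supplemented samples above all others, with no overlap on either side of batch. The differences were -0.61 ± 0.06 (SE) for no addition against batch (adjusted p = 9.26e-07), 1.14 ± 0.06 for ammonium against no addition (1.42e-09) and 1.01 ± 0.06 for valine against no addition (5.54e-09). RPA135 measured 9.93, 9.83 and 10.01 with ammonium, 9.77, 9.76 and 9.82 with valine, 8.65, 8.71, 8.67 and 8.70 without addition, and 9.38, 9.51, 9.56 and 9.50 in batch. It showed the same separation, and here ammonium and valine did not overlap either, although their difference of 0.14 ± 0.06 was not called (adjusted p = 0.116). Ammonium against no addition was 1.24 ± 0.05, a 2.37-fold level and the largest rise among the 40 genes in that comparison (adjusted p = 9.52e-11). Valine against no addition was 1.10 ± 0.05 (4.06e-10).

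RPA190 and RPA135 were the only Pol I subunits called higher than batch with both supplements. With ammonium they stood 0.53 ± 0.06 and 0.44 ± 0.05 above batch (adjusted p 3.57e-06 and 4.17e-06), and with valine 0.40 ± 0.06 and 0.30 ± 0.05 (6.11e-05 and 0.000192). RPA12 was also called higher than batch with ammonium, by 0.20 ± 0.06. RPA14 was 0.15 ± 0.07 above batch with ammonium and 0.09 ± 0.07 with valine, neither of which was called (adjusted p 0.0594 and 0.275). RPA34 stayed below batch with both, by -0.38 ± 0.08 with ammonium and -0.68 ± 0.08 with valine.

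RPA49 and RPA34 encode a pair of subunits that bind each other on the surface of Pol I and act in initiation and elongation. RPA49 measured 9.09, 8.63 and 8.85 with ammonium, 8.79, 8.82 and 8.61 with valine, 7.70, 7.75, 7.57 and 7.80 without addition, and 8.48, 8.96, 9.30 and 9.08 in batch. The no-addition samples were far below the rest, and the supplemented and batch samples overlapped. The difference was -1.25 ± 0.14 for no addition against batch (adjusted p = 3.29e-06), 1.15 ± 0.15 for ammonium against no addition and 1.03 ± 0.15 for valine against no addition. Batch sample 1 was the lowest of its group, and without it the differences of RPA49 and RPA43 from batch with valine were called lower (adjusted p 0.00809 and 0.00241). RPA34 averaged 9.66 ± 0.07 with ammonium, 9.35 ± 0.09 with valine, 9.13 ± 0.05 without addition and 10.04 ± 0.16 in batch (SD), so its rise over no addition was the smallest of the Pol I subunits, at 0.53 ± 0.08 with ammonium and 0.23 ± 0.08 with valine.

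RPA43 and RPA14 encode the stalk of Pol I, and the RPA43 protein is the part that Rrn3 binds. RPA43 measured 9.34, 9.20 and 9.38 with ammonium, 8.99, 9.04 and 9.06 with valine, 8.23, 8.26, 8.11 and 8.16 without addition, and 8.98, 9.21, 9.34 and 9.27 in batch. No-addition samples lay below all others, and ammonium samples lay above all valine samples. The difference of no addition from batch was -1.01 ± 0.07 (adjusted p = 3.98e-08), ammonium against no addition 1.12 ± 0.08 (9.40e-09) and valine against no addition 0.84 ± 0.08 (1.97e-07). RPA14 averaged 9.97 ± 0.05 with ammonium, 9.90 ± 0.16 with valine, 9.35 ± 0.01 without addition and 9.82 ± 0.07 in batch, and RPA12, the subunit for RNA cleavage, averaged 9.45 ± 0.05, 9.23 ± 0.09, 8.68 ± 0.09 and 9.25 ± 0.09. Both were called lower for no addition against batch and higher for each supplement against no addition.

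**Figure D2:**
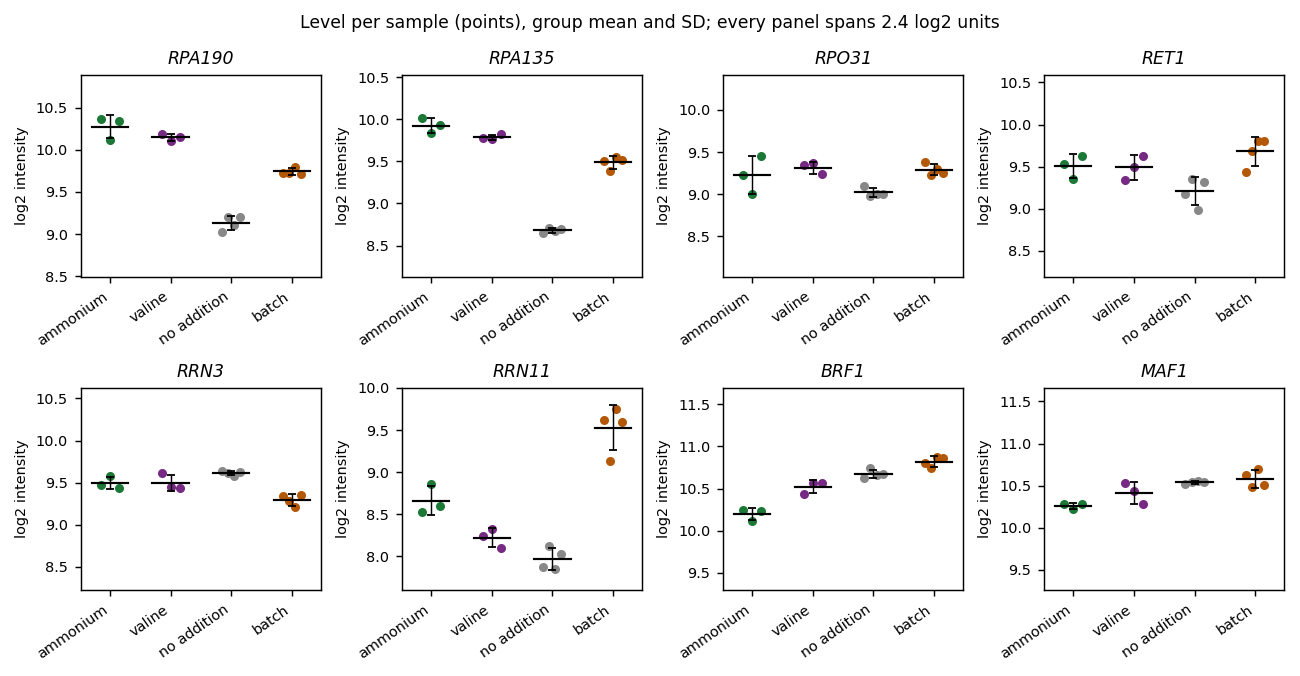
Log2 intensity of 8 genes in each sample (points), with the group mean (line) and SD (bar), for ammonium, valine, no addition and batch. RPA190 and RPA135 are lowest without addition and highest with the supplements, RPO31 and RET1 differ less between groups, RRN11 is highest in batch, and BRF1 and MAF1 are lowest with ammonium.

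RPC40 and RPC19 encode the pair of subunits shared by Pol I and Pol III, on which both enzymes assemble. RPC40 averaged 9.09 ± 0.14 with ammonium, 9.01 ± 0.01 with valine, 8.29 ± 0.03 without addition and 9.11 ± 0.18 in batch. RPC19 averaged 10.72 ± 0.07, 10.73 ± 0.09, 10.34 ± 0.06 and 11.19 ± 0.04 in that order of groups. Both were lower without addition, with differences of -0.82 ± 0.08 and -0.85 ± 0.05 from batch. With the supplements RPC40 was 0.80 ± 0.09 (ammonium) and 0.72 ± 0.09 (valine) above no addition and was not called different from batch, whereas RPC19 was 0.38 ± 0.06 and 0.39 ± 0.06 above no addition and differed from batch by -0.47 ± 0.06 in both.

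The 5 common subunits, which Pol II also contains, rose with both supplements. RPB8 measured 10.77, 10.92 and 10.95 with ammonium, 10.61, 10.56 and 10.81 with valine, 9.78, 9.75, 9.71 and 9.74 without addition, and 10.23, 10.19, 10.12 and 10.11 in batch. No-addition samples were lowest, supplemented samples were highest and batch lay between them without overlap. The difference was -0.42 ± 0.06 for no addition against batch, 1.14 ± 0.06 for ammonium against no addition and 0.72 ± 0.06 for ammonium against batch, the largest rise over batch among the 40 genes. With valine it was 0.92 ± 0.06 against no addition and 0.50 ± 0.06 against batch. RPO26, RPB5, RPB10 and RPC10 rose by 0.42 to 0.62 with ammonium and by 0.29 to 0.66 with valine over no addition. RPB10 was the member of these 5 not called between no addition and batch (-0.13 ± 0.06, adjusted p = 0.0964, and 0.0497 without batch sample 4).

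Pol III subunits moved in the same directions as a group but by less on the probes used and with exceptions. Their median difference was -0.51 for no addition against batch, 0.31 for ammonium against no addition and 0.26 for valine against no addition, beside -0.81, 1.12 and 0.84 for the Pol I subunits. The largest subunit gene, RPO31, measured 9.46, 9.00 and 9.23 with ammonium, 9.34, 9.37 and 9.23 with valine, 9.09, 8.98, 9.01 and 9.00 without addition, and 9.23, 9.25, 9.30 and 9.38 in batch. Ammonium samples overlapped the no-addition samples, valine samples did not, and no-addition samples lay below all batch samples. The differences were -0.27 ± 0.08 for no addition against batch (adjusted p = 0.0088), 0.21 ± 0.08 for ammonium against no addition (0.0409) and 0.29 ± 0.08 for valine against no addition (0.00634). Ammonium against no addition was no longer called when only these groups were fitted (0.0761).

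RET1, the second largest subunit gene of Pol III, measured 9.63, 9.35 and 9.54 with ammonium, 9.34, 9.50 and 9.63 with valine, 9.18, 9.35, 8.99 and 9.32 without addition, and 9.69, 9.80, 9.80 and 9.44 in batch. Valine samples overlapped the no-addition samples, ammonium sample 2 lay just above the highest of them, and both supplemented groups overlapped batch. No addition against batch was -0.47 ± 0.10 (adjusted p = 0.00104), ammonium against no addition 0.30 ± 0.11 (0.0263) and valine against no addition 0.28 ± 0.11 (0.0326). Without batch sample 4 RET1 was also called lower than batch with ammonium (0.041) and with valine (0.0342).

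RPC82, RPC34 and RPC31 encode a trio of subunits that act in promoter opening, and they did not move together. RPC34 measured 9.35, 9.43 and 9.38 with ammonium, 9.65, 9.61 and 9.62 with valine, 9.97, 9.93, 9.77 and 9.87 without addition, and 10.02, 9.85, 9.84 and 9.84 in batch. Ammonium samples were below all others and valine samples below all no-addition and batch samples, which overlapped. It fell by 0.50 ± 0.06 on the log2 scale with ammonium (adjusted p = 2.54e-06) and by 0.26 ± 0.06 with valine (0.001) relative to no addition, the largest fall with ammonium among the 40 genes. RPC31 was 0.71 ± 0.07 above no addition with ammonium and 0.85 ± 0.07 above it with valine, where it was the largest rise of a Pol III subunit. RPC82 differed by -0.73 ± 0.08 between no addition and batch (adjusted p = 3.02e-06), and was called with neither supplement against no addition (0.13 ± 0.09 with ammonium and 0.07 ± 0.09 with valine, adjusted p 0.199 and 0.519).

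RPC53 and RPC37 encode a pair of subunits that act in termination and reinitiation, and their levels diverged with ammonium. RPC53 measured 7.67, 7.89 and 7.75 with ammonium, 7.53, 7.38 and 7.33 with valine, 7.19, 7.20, 7.27 and 7.17 without addition, and 7.78, 7.90, 8.04 and 7.83 in batch. Ammonium samples lay above all valine samples, and valine samples above all no-addition samples. RPC37 measured 9.29, 9.19 and 9.20 with ammonium, 9.50, 9.53 and 9.40 with valine, 9.55, 9.51, 9.57 and 9.55 without addition, and 10.13, 10.36, 10.39 and 10.19 in batch. Ammonium samples were lowest without overlap, and all tank samples were below batch. Ammonium against no addition was 0.56 ± 0.07 for RPC53 (adjusted p = 6.46e-06) and -0.32 ± 0.06 for RPC37 (0.000491), and ammonium against valine was 0.36 ± 0.08 and -0.25 ± 0.07 (0.00668 and 0.0248). RPC37 against batch was -1.04 ± 0.06 with ammonium, -0.79 ± 0.06 with valine and -0.72 ± 0.06 without addition.

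RPC25 and RPC17 encode the Pol III stalk, and RPC11 encodes the subunit for RNA cleavage and termination. RPC17 averaged 7.41 ± 0.06 with ammonium, 7.35 ± 0.07 with valine, 6.62 ± 0.05 without addition and 7.16 ± 0.12 in batch, with differences of 0.79 ± 0.06 and 0.73 ± 0.06 from no addition with the supplements. RPC25 averaged 8.80 ± 0.07, 8.74 ± 0.14, 8.47 ± 0.08 and 8.67 ± 0.05, and its differences from no addition were 0.33 ± 0.07 and 0.27 ± 0.07. RPC11 averaged 9.02 ± 0.08, 8.88 ± 0.14, 8.63 ± 0.02 and 8.65 ± 0.23, and no addition was not called different from batch (-0.03 ± 0.09). RPC17 had the largest rise of a Pol III subunit with ammonium, and RPC11 was 0.39 ± 0.10 above no addition there.

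**Figure D3:**
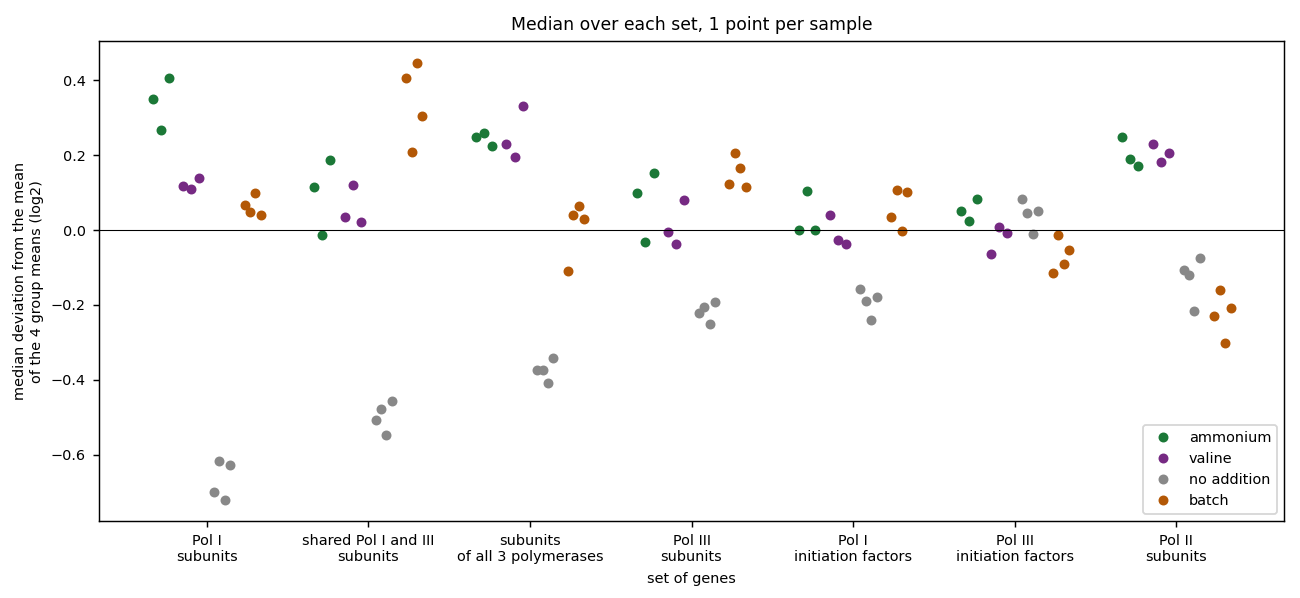
Median over each set of genes of the deviation from the mean of the 4 group means (log2), 1 point per sample, for ammonium, valine, no addition and batch. Pol I subunits spread from about -0.72 in a no-addition sample to 0.40 in an ammonium sample, Pol III subunits spread less, and the sets of initiation factors lie between -0.24 and 0.11.

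Pol I and Pol III were compared sample by sample through the median deviation of each set of subunits from its mean over the groups. The Pol I median minus the Pol III median was 0.25, 0.30 and 0.25 with ammonium, 0.12, 0.15 and 0.06 with valine, -0.48, -0.41, -0.47 and -0.44 without addition, and -0.16, -0.08, -0.07 and -0.06 in batch. The groups did not overlap, and the pooled SD between samples of a group was 0.0388. In the fit, the Pol I median change minus the Pol III median change was -0.30 for no addition against batch, 0.80 for ammonium against no addition, 0.58 for valine against no addition and 0.11 for ammonium against valine. These values describe chosen genes and carry no test. Each subunit had 1 probe, and the size of a change can differ between probes of 1 gene. The 2 probes of RRN5 gave 0.23 and 0.71 for ammonium against no addition. Whether probes account for the difference between Pol I and Pol III was not tested. In the fit Pol I minus Pol III changed by 0.24 for ammonium against batch and by 0.07 for valine against batch. The per-sample medians set valine and batch farther apart than this 0.07, so their separation depends on how the median is taken. The value for valine against batch in the fit was 0.0164 without valine sample 1, 0.0222 without batch sample 2, 0.11 without batch sample 1 and 0.13 without valine sample 2.

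Counterpart subunits occupy the same place in both enzymes, and 5 such pairs were compared through the log2 ratio of the Pol I gene to the Pol III gene within each sample. Exact two-sided permutation tests over samples were run for 5 pairs in 4 comparisons, with Benjamini-Hochberg adjustment over the 20 tests. With 3 samples against 4 or 4 against 4, the exact test reported here cannot give less than p = 0.0286, and with 3 against 3 not less than 0.1. Every call below sat at 0.0286, so the adjusted 0.044 is 1 shared value that depends on how many tests reached that limit. The pairs share samples and their genes were chosen with earlier results known, so the calls are not separate evidence. The change of the ratio for no addition against batch was -0.34 for RPA190 over RPO31, -0.33 for RPA135 over RET1, -0.81 for RPA43 over RPC25 and -0.54 for RPA12 over RPC11 (each exact p = 0.0286, adjusted 0.044). For RPA14 over RPC17 it was 0.07 (exact p = 0.457), which is within the spread between samples.

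For ammonium against no addition the ratio changed by 0.94, 0.95, 0.78 and 0.38 in the pairs RPA190 over RPO31, RPA135 over RET1, RPA43 over RPC25 and RPA12 over RPC11, and by -0.17 in RPA14 over RPC17 (each exact permutation p = 0.0286, adjusted 0.044). The stalk pair RPA14 and RPC17 was the exception in sign, since RPC17 rose by more than RPA14. For valine against no addition the changes were 0.72, 0.82, 0.57 and 0.30 in the same order of pairs (each exact permutation p = 0.0286, adjusted 0.044), and -0.18 in RPA14 over RPC17 (exact p = 0.257). Ammonium against valine gave changes of 0.01 to 0.21, none of which could be called with 3 samples a group. Of the 13 adjusted calls, none changed sign when 1 sample was left out, but with fewer samples the smallest reachable p rises and adjusted p values then lay between 0.044 and 0.143.

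**Figure D4:**
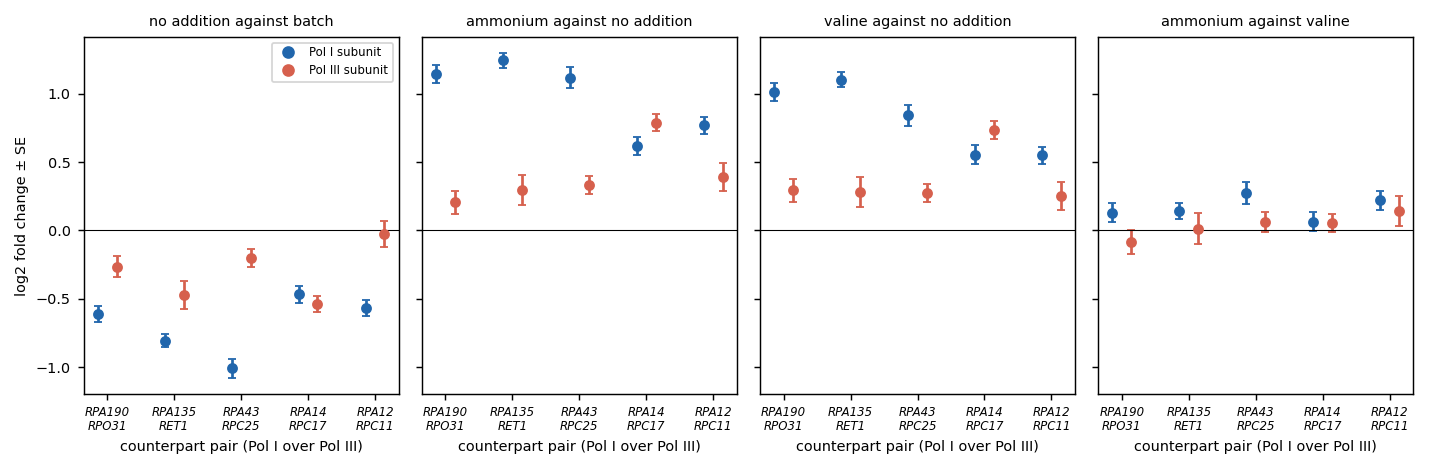
Log2 fold change with its SE of each Pol I subunit gene (blue) and its Pol III counterpart (red) in 4 comparisons. Blue points lie below red ones without addition against batch and above them with either supplement against no addition, except in the pair RPA14 and RPC17. In that pair the order is reversed by a smaller amount (Pol I minus Pol III 0.07, -0.17 with ammonium and -0.18 with valine).

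The initiation factors of Pol I showed no common direction. RRN3, whose product links Pol I to its promoter factors, measured 9.44, 9.58 and 9.48 with ammonium, 9.61, 9.45 and 9.44 with valine, 9.64, 9.61, 9.58 and 9.63 without addition, and 9.28, 9.35, 9.21 and 9.34 in batch. All tank samples lay above all batch samples, ammonium samples lay just below all no-addition samples, and valine samples overlapped them. Relative to batch, no addition was 0.32 ± 0.05 (adjusted p = 0.000107), opposite in sign to the Pol I subunits. Ammonium and valine were both -0.12 ± 0.06 from no addition and not called (0.0793 and 0.0821), although without ammonium sample 2 or valine sample 1 they were (0.0336 and 0.0197).

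RRN6, RRN7 and RRN11 encode core factor, which binds the core promoter of the ribosomal DNA. RRN11 measured 8.60, 8.86 and 8.53 with ammonium, 8.25, 8.33 and 8.10 with valine, 7.87, 8.13, 7.85 and 8.03 without addition, and 9.14, 9.60, 9.75 and 9.62 in batch. Batch was highest without overlap, ammonium came next, and valine overlapped no addition. Its difference of -1.56 ± 0.12 for no addition against batch was the largest of the 40 genes in that comparison (adjusted p = 8.00e-08), and ammonium against no addition was 0.69 ± 0.13 (0.000207). Valine against no addition was 0.26 ± 0.13 and not called (0.0887, and 0.0186 without batch sample 1).

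RRN7 measured 8.37, 8.54 and 8.20 with ammonium, 7.93, 7.87 and 7.94 with valine, 8.25, 8.30, 8.13 and 8.23 without addition, and 8.71, 9.23, 9.36 and 9.16 in batch. Batch was highest and valine lowest, each without overlap, and ammonium overlapped no addition. The no-addition samples differed from batch by -0.89 ± 0.11 (adjusted p = 1.08e-05) and valine against no addition -0.31 ± 0.12 (0.0332, and 0.0777 with slide as a covariate), while ammonium against no addition was 0.14 ± 0.12 and not called (0.321). Ammonium against valine was 0.45 ± 0.13 for RRN7 and 0.44 ± 0.14 for RRN11 (0.0291 and 0.0419, and 0.0817 and 0.099 with slide as a covariate). RRN6 averaged 7.78 ± 0.03 with ammonium, 7.67 ± 0.08 with valine, 7.71 ± 0.08 without addition and 7.81 ± 0.07 in batch, and was called in 1 comparison, valine against batch (-0.14 ± 0.06).

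RRN5, RRN9 and RRN10 encode subunits of the upstream activating factor, which binds the upstream element of the ribosomal DNA promoter. RRN9 measured 9.26, 9.04 and 9.24 with ammonium, 9.33, 9.40 and 9.29 with valine, 8.55, 8.64, 8.54 and 8.63 without addition, and 8.53, 8.75, 8.83 and 8.57 in batch. Supplemented samples were above all others, and no addition overlapped batch. Its difference from no addition was 0.59 ± 0.08 with ammonium and 0.75 ± 0.08 with valine (adjusted p 6.79e-06 and 6.09e-07), and the 0.67 ± 0.08 of valine against batch was the largest rise of the 40 genes there. RRN5 was likewise 0.46 ± 0.04 and 0.42 ± 0.04 above no addition, but its probes differed in size, with 0.23 and 0.71 for ammonium and 0.21 and 0.63 for valine. RRN10 was lower in no addition than in batch (-0.39 ± 0.08) and was not called with either supplement against no addition (0.05 ± 0.08 with ammonium and 0.11 ± 0.08 with valine, the valine difference being called without valine sample 3 at 0.0253).

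The 6 TFIIIC genes encode the complex that binds the internal promoters of transfer RNA genes. TFC8 measured 8.91, 8.80 and 8.82 with ammonium, 8.91, 8.84 and 8.78 with valine, 8.75, 8.60, 8.61 and 8.65 without addition, and 8.31, 8.21, 8.25 and 8.30 in batch. Batch was lowest, no addition intermediate and the supplemented samples highest, without overlap. Relative to batch, no addition was 0.38 ± 0.05 (adjusted p = 1.26e-05), the largest rise among the 40 genes in that comparison, and both supplements added 0.19 to 0.20 (SE 0.05).

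TFC7 measured 9.70, 9.74 and 9.64 with ammonium, 9.63, 9.57 and 9.62 with valine, 9.94, 9.88, 9.96 and 9.89 without addition, and 9.81, 9.72, 9.58 and 9.62 in batch. No-addition samples were highest without overlap, ammonium samples lay just above all valine samples, and both supplemented groups overlapped batch. TFC6 measured 10.04, 9.96 and 9.86 with ammonium, 9.84, 9.88 and 9.93 with valine, 10.04, 9.94, 9.85 and 10.05 without addition, and 9.86, 9.78, 9.62 and 9.58 in batch. Batch was lowest, with batch sample 1 inside the range of the no-addition and valine samples. No addition against batch was 0.23 ± 0.05 for TFC7 and 0.26 ± 0.07 for TFC6 (adjusted p 0.00136 and 0.00444), and TFC7 was -0.22 ± 0.06 with ammonium and -0.31 ± 0.06 with valine against no addition (0.00263 and 0.000191).

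TFC1 measured 8.00, 8.14 and 7.98 with ammonium, 8.00, 7.91 and 8.03 with valine, 8.31, 8.27, 8.27 and 8.25 without addition, and 8.34, 8.26, 8.29 and 8.24 in batch. Supplemented samples lay below all no-addition and batch samples, which overlapped fully. The difference from no addition was -0.23 ± 0.05 with ammonium and -0.29 ± 0.05 with valine (adjusted p 0.000935 and 0.000138). TFC3 and TFC4 were called higher with ammonium against no addition, by 0.15 ± 0.06 and 0.13 ± 0.05, and TFC3 was close to the threshold for no addition against batch (0.14 ± 0.06, adjusted p = 0.0515, and 0.00956 to 0.0491 without no-addition 3, batch 1, valine 1 or valine 3). TFC4 with valine was 0.10 ± 0.05 against no addition (0.113, and 0.043 without valine sample 3).

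TFIIIB is placed by TFIIIC and recruits Pol III, and BRF1 and BDP1 encode its subunits dedicated to Pol III. BRF1 measured 10.24, 10.12 and 10.25 with ammonium, 10.43, 10.57 and 10.57 with valine, 10.62, 10.74, 10.66 and 10.68 without addition, and 10.74, 10.87, 10.87 and 10.80 in batch. The groups stood in that order from low to high, with overlap only between no addition and batch. Ammonium against no addition was -0.47 ± 0.06 (adjusted p = 2.73e-06), valine against no addition -0.15 ± 0.06 (0.0242, and 0.0617 with slide as a covariate) and ammonium against valine -0.32 ± 0.06 (0.00263). No addition against batch was -0.14 ± 0.05 (0.0259). BDP1 was called by limma in none of the 6 comparisons, with differences of -0.06 to 0.11 and 0 comparisons at an unadjusted p under 0.05.

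MAF1 measured 10.28, 10.22 and 10.28 with ammonium, 10.54, 10.43 and 10.28 with valine, 10.52, 10.55, 10.55 and 10.55 without addition, and 10.49, 10.50, 10.70 and 10.62 in batch. Ammonium samples lay below all no-addition and batch samples, and valine samples spread from the ammonium level to the no-addition level. Ammonium against no addition was -0.28 ± 0.06 (adjusted p = 0.00142) and ammonium against batch -0.32 ± 0.06 (0.000478). Valine against no addition was -0.12 ± 0.06 (0.106, and 0.029 without valine sample 1), and no addition against batch was -0.04 ± 0.06 (0.607). Maf1 is known to be controlled mainly by phosphorylation, which arrays do not measure.

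Ranked over the group means, no addition was the lowest group for 27 of the 40 genes (67.5%, against 24.9% of all features). The lowest group was ammonium for 4 (10%, against 24.4%). Ammonium was the highest group for 17, batch for 15, and valine and no addition for 4 each. Over all features batch was highest for 28.6%, ammonium for 23.3%, valine for 18.5% and no addition for 29.6%. These ranks take no account of the spread between samples.

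The 7 subunits that belong to Pol II alone gave a measure of how far a change was shared with the enzyme of messenger RNA. For no addition against batch their median was 0.03, beside -0.81 in Pol I and -0.51 in Pol III. RPB4, RPB7 and RPB11 were higher (0.32, 0.34 and 0.23), where 30.3% of all features were higher, and RPB3 and RPB9 lower (-0.42 and -0.16), where 27% were lower, the call on RPB11 being lost without no-addition 1 or 2 or batch 2 or 3 (adjusted p up to 0.0829). With ammonium RPB2, RPB3, RPB4, RPB7 and RPB9 were 0.23 to 0.69 above no addition (32.1% of all features were higher), with a median of 0.30 over the 7 (RPB4 lost without ammonium 3, adjusted p = 0.0677). With valine the same 5 were 0.31 to 0.65 above it (32.3%), with a median of 0.34, while RPO21, the largest subunit gene, was lower (-0.27 ± 0.07), where 35.6% of all features were lower. These medians lay near those of Pol III with the supplements and above those of both other enzymes between no addition and batch, a description that carries no test. Against batch 6 of 7 were higher with ammonium (33.2% of all features), and RPB2 (0.66 ± 0.06) and RPB9 (0.40 ± 0.05) had the smallest adjusted p. With valine 6 were higher (31.6%), with the smallest adjusted p for RPB2 (0.51 ± 0.06) and RPB4 (0.67 ± 0.08), and RPO21 was lower (-0.29 ± 0.07), where 34.8% of all features were lower. None of the 7 was called by limma between ammonium and valine, with 2 higher and 0 lower at an unadjusted p under 0.05.

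Among 10 further factors of Pol I and Pol III transcription, 4 were higher and 5 lower without addition than in batch, where 30.3% of all features were higher and 27% lower. The higher ones were NHP6A (0.76 ± 0.07), NHP6B (0.38 ± 0.10), SUB1 (0.37 ± 0.06) and REB1 (0.13 ± 0.05, lost without no-addition 1, 2 or 4 or batch 1 or 4, adjusted p up to 0.0813). NHP6A and NHP6B are small DNA-bending proteins, and Reb1 binds the ribosomal DNA. The lower ones were UAF30, the remaining dedicated subunit of the upstream activating factor (-0.48 ± 0.05), PZF1, which encodes TFIIIA (-0.44 ± 0.11), FOB1 (-0.30 ± 0.05), SPT15, which encodes the TATA-binding protein (-0.19 ± 0.06, adjusted p = 0.0576 with slide as a covariate), and NET1 (-0.17 ± 0.05). With ammonium 6 of the 10 were called above no addition (32.1% of all features), with the smallest adjusted p for NET1 (0.46 ± 0.05) and REB1 (0.43 ± 0.05) and the largest difference for NHP6A (0.52 ± 0.07). NHP6B was below it (-0.46 ± 0.10), where 35.5% of all features were lower. With valine 6 were called above (32.3%), with the smallest adjusted p for REB1 (0.47 ± 0.05) and UAF30 (0.43 ± 0.05), and NHP6B and SUB1 were below (-0.53 ± 0.10 and -0.29 ± 0.07), where 35.6% of all features were lower. Between the supplements NET1 alone was called, higher with ammonium where 7.59% of all features were higher (0.21 ± 0.05, adjusted p = 0.0215, lost without ammonium 2 or 3 or valine 2, up to 0.0922).

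Kinases and phosphatases that act on Maf1 or on Pol III factors were measured for 11 genes. Without addition 8 were lower than in batch by limma's test and 0 higher (also 8 and 0 at an unadjusted p under 0.05), where 27% of all features were lower and 30.3% higher. The smallest adjusted p were those of PSY2 (-0.47 ± 0.06) and PPH3 (-0.85 ± 0.12), whose products form a phosphatase that acts on Maf1, while CKA2 (no addition 1 or batch 3) and TPK3 (no addition 3 or batch 2) lost their calls without the sample named (adjusted p 0.0517 to 0.059), and CKA2 also with slide as a covariate (0.0501). SCH9, a kinase of Maf1 downstream of TOR complex signalling, averaged 8.95 ± 0.23 with ammonium, 9.30 ± 0.07 with valine, 9.64 ± 0.10 without addition and 10.17 ± 0.07 in batch. It fell with each supplement relative to no addition (-0.70 ± 0.09 with ammonium and -0.34 ± 0.09 with valine), as did TPK2 (-0.45 and -0.26), a catalytic subunit of protein kinase A, and KNS1 (-0.44 and -0.38), a kinase of Pol III subunit Rpc53. These 3 falls stand beside 35.5% of all features lower with ammonium and 35.6% with valine. CKA1 (0.52 and 0.47), TPK3 (0.51 and 0.33) and MCK1 (0.44 and 0.48) rose with both, and CKB1 (0.29) and CKA2 (0.25, lost without valine 2 or no addition 1, 3 or 4, adjusted p up to 0.274, and 0.0764 with slide as a covariate) with valine. That made 3 higher with ammonium (32.1% of all features) and 5 with valine (32.3%). Between the supplements SCH9 and CKB1 were lower with ammonium (-0.35 ± 0.10 and -0.33 ± 0.05), where 8.79% of all features were lower. The call on SCH9 was lost without ammonium 1 or 3 or valine 1 or 3 (adjusted p up to 0.0923) and with slide as a covariate (0.0513).

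Of 5 genes for assembly or import of the polymerases, RBA50, BUD27 and NPA3 were lower without addition than in batch (-1.10 ± 0.07, -0.71 ± 0.06 and -0.36 ± 0.05), where 27% of all features were lower. With ammonium IWR1, BUD27 and RTR1 were lower than without addition (-0.50 ± 0.07, -0.25 ± 0.06 and -0.20 ± 0.07), where 35.5% of all features were lower, and RTR1 was lost without ammonium 1 or 3 or no addition 1 or 3 (adjusted p up to 0.101). With valine NPA3 was higher (0.14 ± 0.05, 32.3% of all features higher, lost without valine 1 or 3 or no addition 2, up to 0.0751). There IWR1 and RBA50 were lower (-0.26 ± 0.07 and -0.19 ± 0.07, 35.6% of all features lower, RBA50 lost without valine 1 or 3 or no addition 1, 2 or 3, up to 0.139), and BUD27 was called with slide as a covariate (0.036). All 5 were called lower than batch with ammonium (35.5% of all features) and with valine (34.8%), with differences of -1.29 to -0.22. IWR1 was lower with ammonium than with valine (-0.23 ± 0.07, 8.79% of all features lower). That call was lost without any ammonium sample, without valine 1 or 2 (adjusted p up to 0.165) and with slide as a covariate (0.0892).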

How the data were processed

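Total RNA was labelled with Cy3 and hybridised to 16 one-colour Agilent arrays on 2 slides, per the labels' protocols. The authors deposited log2 intensities of 6271 probes, made with R 2.13.1 and limma per the submitters' processing notes, while background correction and normalization were not given in the sources used here. Probes were named from the platform annotation, with symbols updated through RefSeq: of 6271 probes, 5220 had a symbol (5167 current, 51 updated, 2 unmatched) and 1051 had none. Probes of a gene were averaged, giving 6248 features, and the 2 arrays of ammonium sample 3 were averaged first. Group means of 14 samples were compared by lmFit and eBayes of limma 3.58.1 (R 4.3.3, 10 residual degrees of freedom, two-sided tests), with no intensity filter and Benjamini-Hochberg adjustment over all features. The procedure was run on simulated data with independent noise for each gene and no slide effect. That run could not show errors from slides or from deviations shared between samples.

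The 40 genes and the other lists were chosen with earlier results of these data known. Per-sample values are given for RPA190, RPA135, RPO31, RET1, RRN3, BRF1 and MAF1 and for the 3 called genes with the largest rise and the 3 with the largest fall in each comparison. In the other lists the 2 genes of smallest adjusted p and every gene of a count of 5 or fewer are named, and SCH9 was added after its values were seen. The other lists held 33 measured genes. The number of arrays limits the precision. The sources used here gave no sequences of these genes, and none is printed.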

Additional observations from a re-analysis of the deposited data

Results flagged for a closer look

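In groups of 4 samples, the gap of the highest or lowest sample to its nearest neighbour was tested against Dixon's 95% critical value for each of the 40 genes, 80 groups in all, of which chance alone would mark about 1 in 20. It was exceeded in 2. RPA190 measured 9.8 in batch sample 3, where the other batch samples lay at 9.72 to 9.73 (gap over range 0.856), a gap of under 0.1 that is small beside the -0.61 between no addition and batch. RPC34 measured 10.02 in batch sample 1, where the others lay at 9.84 to 9.85 (0.939).

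The sample with contradictory labels, which entered no comparison, lay above every no-addition sample in 27 of the 40 genes and below every one in 9. The shares of all features were not computed for this sample, so these counts cannot be read as a trait of these genes.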

How the results depend on the processing

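Of 6450 recomputed differences of single genes among the 40 (all alternatives), 6096 kept their direction and their side of the threshold, 268 were no longer called, 86 became called and 0 called ones changed sign, and of 5328 for the other 33 genes 5093, 181, 54 and 0. Within a slide, 1 or both groups of every comparison but valine against batch on slide 1 and ammonium against no addition on slide 2 had 1 array, assumed to vary like the other groups, so a call lost there says little. The counts on slide 1 were 2 higher for no addition against batch, 17 higher and 1 lower for ammonium against no addition, 2 lower for valine against no addition, 7 higher for ammonium against batch, 8 higher for valine against batch, and 0 higher and 0 lower for ammonium against valine by limma (5 and 1 at an unadjusted p under 0.05). On slide 2 they were 2 higher for no addition against batch, 2 higher and 0 lower for ammonium against valine (7 and 4 unadjusted) and 9 lower for valine against batch. For each of these within-slide counts, the share of all features called in that direction was also smaller than with all 14 samples. For valine against batch on slide 1, 25.1% of all features were higher, beside 31.6% with all 14 samples. On slide 1 few features of any kind were called between ammonium and valine. The smaller counts within a slide therefore cannot be read as a trait of the 40 genes. Ammonium against valine gave 4 higher with slide as a covariate (4.8% of all features) and 15 with array weights (20.6%). It gave 5 with the replicate number as a block (4.8%) and 5 with ammonium sample 3 from its slide 1 array alone (5.76%). With 1 sample left out, ammonium against valine gave 3 to 8 higher (3.07% to 10.2% of all features) and 1 to 4 lower (4.95% to 10.9%). Valine against no addition gave 3 (without no-addition sample 2) to 5 lower, where 33.1% to 36.9% of all features were lower. Batch 1, ammonium 2 and valine 3 were also left out together. The higher and lower counts were then 5 and 25 for no addition against batch (34.8% and 31.9% of all features). For ammonium against no addition they were 29 and 7 (34.3% and 37.2%), and for valine against no addition 26 and 5 (34.2% and 36.8%). For ammonium against valine they were 12 and 4 (12.2% and 13%).

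Pol I minus Pol III median change kept its sign throughout. For no addition against batch it was -0.44 without the dimmest 25% of features and -0.37 with array weights. For ammonium against no addition it was 0.86 without the dimmest 25%, 0.91 within slide 1 and 0.76 to 0.83 with 1 sample left out. For valine against no addition it was 0.62 with array weights, 0.62 without batch 1, ammonium 2 and valine 3, and 0.56 to 0.62 with 1 sample left out. For ammonium against valine it was 0.18 without the dimmest 25%, 0.16 with slide as a covariate, 0.19 and 0.23 within slides 1 and 2, and 0.11 to 0.16 with 1 sample left out. For ammonium against batch it was 0.18 with slide as a covariate, 0.29 within slide 1, 0.30 with array weights and 0.18 to 0.30 with 1 sample left out. For valine against batch it was 0.0254 and 0.23 within slides 1 and 2, 0.11 without batch 1, ammonium 2 and valine 3, and 0.0164 to 0.13 with 1 sample left out. The cause of these shifts was not tested.

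Replicate numbers did not pair the samples: the deviations of 19 same-numbered pairs correlated at -0.57 to 0.31, only 4 of them over 0.1, and 3 samples correlated best with their own number. With the number as a block 15 calls on the 40 genes were lost and 0 gained. Differently numbered pairs from different groups correlated at -0.55 to 0.65. Among them were batch 1 with valine 3 (0.65), batch 1 with ammonium 2 (0.38) and ammonium 2 with valine 3 (0.31). These are the samples left out together above, and what they share was not tested. Leaving out a sample of a group of 3 leaves 2, so its spread rests on the other groups. Pair ratios were recomputed after quantile normalization and with samples left out, not under the slide, weight or block settings.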

Other observations

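In the sample with contradictory labels, RPA190 measured 10.41, RPA135 10.08, RPB8 11.21, BRF1 10.17 and MAF1 10.11. Its median deviation from the mean of the group means was 0.45 over the Pol I subunits and 0.11 over the Pol III subunits, a difference of 0.33.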
